A study of Mus musculus with 4 samples.

Results

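The p53 pathway was followed here through 10 genes, which are Trp53 itself, 8 genes known as targets or regulators of its protein and the arrest gene Cdkn2a. The genes were listed by name, with earlier results of these data known, and were 10 of the 32285 genes in the matrices. For each of them, the raw counts of unique molecular identifiers (UMIs, tags that let each captured transcript be counted once) were summed over the cells of each marker-gated cell class in each library. The libraries came from C57BL/6J mice of 6 to 8 weeks with leukaemia grown from MA9 cells, a mouse model of acute myeloid leukaemia driven by the fusion protein MLL-AF9. The leukaemia cells carried either a doxycycline-inducible hairpin RNA against the arginine methyltransferase Prmt9 (shPrmt9) or its control (Ctrl), and all animals drank doxycycline for 7 days, so the controls shared the drug. Bone marrow (BM) gave the libraries BM-Ctrl and BM-shPrmt9, and spleen gave Spleen-Ctrl and Spleen-shPrmt9, 1 per group. The hairpin was carried by the MA9 cells, and the other classes compared here were told apart from them by markers alone. The paper states that the recipients of its single-cell experiment were wild-type B6 mice, with a representative mouse of each group giving both tissues. Its methods describe sublethally irradiated recipients without tying irradiation to these libraries.

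The protein p53 is a transcription factor that is held at a low level by Mdm2, a ubiquitin ligase which is also its target, and that accumulates when DNA is damaged or ribosomes and oncogenes signal stress. Its targets stop the cell cycle, chiefly through p21, and start apoptosis through members of the BCL2 family. In blood-forming tissue the pathway is known for the response to irradiation, for its activity in erythroid cells that fail to make ribosomes and for its loss in many leukaemias.

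Binding of p53 is known to use pairs of a short half-site, so promoters of the genes were searched for the p53 half-site consensus, which reads the same on both strands. In the promoters of RefSeq (GRCm38.p6, 250 bases before to 50 after each start), 9 of the 10 genes were listed with 13 promoters, and 5 of these promoters, those of Cdkn1a, Mdm2, Trp53, Ccng1 and Bax, held a match. Over all 32851 promoters the share with a match was 8.36%. The upstream promoter of Cdkn1a was 1 of 24 promoters (0.0731%) with 2 matches at most 13 bases apart, here with 12 bases between them, at 73 and 51 bases before the start. The sequences below are those 5 promoters, shown because they held a match, with the matches in capitals and in the direction of each gene. All 5 genes were at least the 1.5-fold used below higher in erythroid cells of bone marrow with the hairpin. So were Bbc3, Phlda3 and Eda2r, whose promoters held no match, and 51.3% of all genes counted there. A match describes the letters only and is not a measured binding site.
Cdkn1a, chr17:29090729-29091028, plus strand: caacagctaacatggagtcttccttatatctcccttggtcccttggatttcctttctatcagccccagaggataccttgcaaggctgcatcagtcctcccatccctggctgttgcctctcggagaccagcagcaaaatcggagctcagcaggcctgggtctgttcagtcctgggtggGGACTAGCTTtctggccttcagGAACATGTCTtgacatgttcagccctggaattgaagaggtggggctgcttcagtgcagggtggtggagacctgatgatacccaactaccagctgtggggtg
Mdm2, chr10:117710709-117711008, minus strand: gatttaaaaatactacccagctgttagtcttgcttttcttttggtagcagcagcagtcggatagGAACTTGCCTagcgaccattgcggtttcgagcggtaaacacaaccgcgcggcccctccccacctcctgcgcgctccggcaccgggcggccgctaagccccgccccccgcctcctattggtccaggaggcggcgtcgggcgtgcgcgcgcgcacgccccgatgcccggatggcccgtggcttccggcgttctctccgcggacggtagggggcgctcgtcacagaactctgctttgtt
Trp53, chr11:69580109-69580408, plus strand: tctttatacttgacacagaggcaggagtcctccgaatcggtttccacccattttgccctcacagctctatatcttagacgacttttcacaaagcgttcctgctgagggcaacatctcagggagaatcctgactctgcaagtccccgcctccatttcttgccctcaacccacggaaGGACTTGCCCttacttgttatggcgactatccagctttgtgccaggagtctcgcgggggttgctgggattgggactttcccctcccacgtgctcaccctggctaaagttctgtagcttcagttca
Ccng1, chr11:40755237-40755536, minus strand: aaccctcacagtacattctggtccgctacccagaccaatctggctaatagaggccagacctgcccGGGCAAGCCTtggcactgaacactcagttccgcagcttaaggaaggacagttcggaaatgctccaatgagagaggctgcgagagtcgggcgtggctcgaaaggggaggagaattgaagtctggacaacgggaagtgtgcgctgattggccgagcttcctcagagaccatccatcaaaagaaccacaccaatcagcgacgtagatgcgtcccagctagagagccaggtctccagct
Bax, chr7:45466849-45467148, minus strand: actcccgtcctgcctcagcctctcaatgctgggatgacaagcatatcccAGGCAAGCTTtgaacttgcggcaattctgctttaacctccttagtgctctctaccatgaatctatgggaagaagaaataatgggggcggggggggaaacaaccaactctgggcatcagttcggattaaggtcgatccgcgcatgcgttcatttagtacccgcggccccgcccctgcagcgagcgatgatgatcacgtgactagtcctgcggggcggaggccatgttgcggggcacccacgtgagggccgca

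Gates from the markers of each cell gave 16 comparisons of shPrmt9 with control within a class and tissue, each class with at least 50 cells in both libraries, of which 9 were in bone marrow and 7 in spleen. The libraries held 8648 to 11315 barcodes and 84009744 to 188030429 UMIs, and 7545 to 10175 cells per library were used. The 10 genes took 0.0703% and 0.0709% of the UMIs in BM-Ctrl and BM-shPrmt9, and 0.0432% and 0.0751% in Spleen-Ctrl and Spleen-shPrmt9. Prmt9, the target of the hairpin, was counted at 10.9 CPM (UMIs of the gene scaled to a sum of 1e+06 UMIs over the same cells) in MA9 cells of BM-Ctrl and 6.29 CPM in those of BM-shPrmt9. In the other classes it went both ways. It was lower with shPrmt9 in spleen T cells, at 15.2 and 9.45 CPM, and higher in basophils of bone marrow, at 7.32 and 27.2 CPM. With 1 library per group there is no replicate and no test. The intervals below are exact 95% intervals, Poisson for levels and conditional binomial for ratios, and cover counting error only.

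Sex-linked genes set the libraries apart before any result. Ddx3y, a gene of the Y chromosome, had 0 UMIs in both bone marrow libraries and 5637 and 5874 in the spleen libraries, so marrow and spleen did not come from the same animals. This differs from the paper's account that a representative mouse of each group gave both tissues. Xist, the RNA of the inactive X chromosome, was at 569 CPM in T cells and 348 CPM in erythroid cells of BM-shPrmt9. In BM-Ctrl it was at 295 CPM in T cells, but had 0 UMIs in erythroid cells and 1 and 7 UMIs in mature neutrophils and MA9 cells. Outside T and B cells, each bone marrow ratio below therefore sets cells with almost no Xist UMIs against cells of a library in which it was counted. In MA9 cells of BM-shPrmt9 it was at 18.3 CPM. B cells of marrow were unequal too, at 43.7 CPM in BM-Ctrl and 927 CPM in BM-shPrmt9. The part of these differences in the results was not tested. Between 15 and 35 cell barcodes were shared by each pair of libraries, at most 0.405% of a library.

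Of the arrest genes, Cdkn1a reached the highest levels. Cdkn1a (ENSMUSG00000023067, GRCm38 chromosome 17, 29090976 to 29100727, plus strand) encodes p21, the inhibitor of cyclin-dependent kinases that carries out most of the arrest by p53. Over the 33 pairs of class and library with enough cells, it ranged from 1.01 CPM in erythroid cells of Spleen-Ctrl to 323 CPM in monocytes of BM-Ctrl, whose interval overlapped that of MA9 cells of the same library at 306 CPM. Natural killer cells were highest among the lymphocytes, while immature and mature neutrophils and B cells lay far lower, as the plot of Cdkn1a by class shows. Cdkn2a (ENSMUSG00000044303, chromosome 4, 89274471 to 89294653, minus strand) encodes the kinase inhibitor p16Ink4a and, from another first exon, p19Arf, which blocks Mdm2. Its 2 coding transcripts begin at 89282192 and 89294653 and share their later exons, so UMIs counted at the 3′ end cannot tell them apart. Its level was highest in MA9 cells of BM-Ctrl at 33.4 CPM, followed by precursor B cells of the same library at 16.4 CPM, and it had 0 UMIs in several classes. Ccng1 (ENSMUSG00000020326, chromosome 11, 40748552 to 40755311, minus strand), the p53 target that encodes cyclin G1, ranged from 10.0 CPM in mature neutrophils of Spleen-shPrmt9 to 94.4 CPM in erythroid cells of BM-shPrmt9, with MA9 cells of that library at 92.3 CPM and overlapping intervals.

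**Figure D1:**
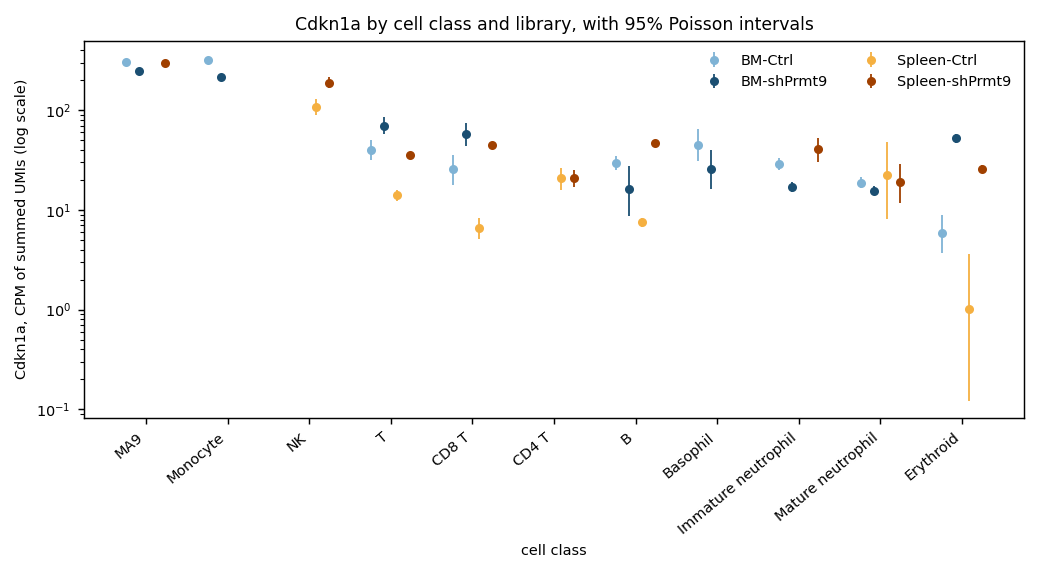
Level of Cdkn1a, in CPM of summed UMIs on a log scale, in the 11 compared cell classes (horizontal axis) and the 4 libraries (colours), with exact 95% Poisson intervals as bars. A point is drawn where a library held at least 50 cells of the class, and classes that were not compared are not drawn. MA9 cells and monocytes lie above 200 CPM, and the lowest point is that of erythroid cells of Spleen-Ctrl at 1.01 CPM.

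Trp53 and its regulator Mdm2 were highest in other classes than Cdkn1a. Trp53 (ENSMUSG00000059552, chromosome 11, 69580359 to 69591873, plus strand) was highest in T cells of Spleen-shPrmt9 at 167 CPM, an interval that overlapped that of erythroid cells of BM-shPrmt9 at 164 CPM, and lowest in mature neutrophils of BM-Ctrl at 7.68 CPM. Mdm2 (ENSMUSG00000020184, chromosome 10, 117688875 to 117710758, minus strand) ran from 15.7 CPM in erythroid cells of Spleen-Ctrl to 115 CPM in those of BM-shPrmt9, which overlapped with monocytes of that library at 111 CPM.

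Among the genes of cell death, Bax (ENSMUSG00000003873, chromosome 7, 45461697 to 45466898, minus strand), which opens pores in the outer mitochondrial membrane, was highest in MA9 cells. It was counted at 355 CPM in the MA9 cells of Spleen-shPrmt9 and 344 CPM in those of BM-shPrmt9, with overlapping intervals, and at 38.9 CPM in erythroid cells of Spleen-Ctrl, the lowest. An annotated gene, Gm45808, lies over Bax on the same strand, so the split of UMIs between them is uncertain. Bbc3 (ENSMUSG00000002083, chromosome 7, 16308393 to 16318205, plus strand) encodes Puma, which frees Bax to act. Its highest level was 160 CPM in erythroid cells of BM-shPrmt9, well above the next at 65.5 CPM in erythroid cells of BM-Ctrl, and its lowest 3.11 CPM in immature neutrophils of Spleen-shPrmt9.

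The other targets were highest in the same class and library, erythroid cells of BM-shPrmt9. Phlda3 (ENSMUSG00000041801, chromosome 1, 135766119 to 135769136, plus strand), an inhibitor of Akt, was at 64.1 CPM there and at 15.3 CPM in the next, B cells of Spleen-shPrmt9. Trp53inp1 (ENSMUSG00000028211, chromosome 4, 11156431 to 11174379, plus strand), a nuclear and autophagy protein induced by p53, was at 390 CPM there, at 308 CPM in plasma cells of Spleen-shPrmt9 and at 7.35 CPM in neutrophil progenitors of BM-Ctrl. Eda2r (ENSMUSG00000034457, chromosome X, 97333840 to 97377216, minus strand), a receptor of the tumour necrosis factor family, reached 3.44 CPM there, with an interval that overlapped that of erythroid cells of Spleen-shPrmt9, and had 81 UMIs in all cells of the series together, so most of its values are at 0.

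**Figure D2:**
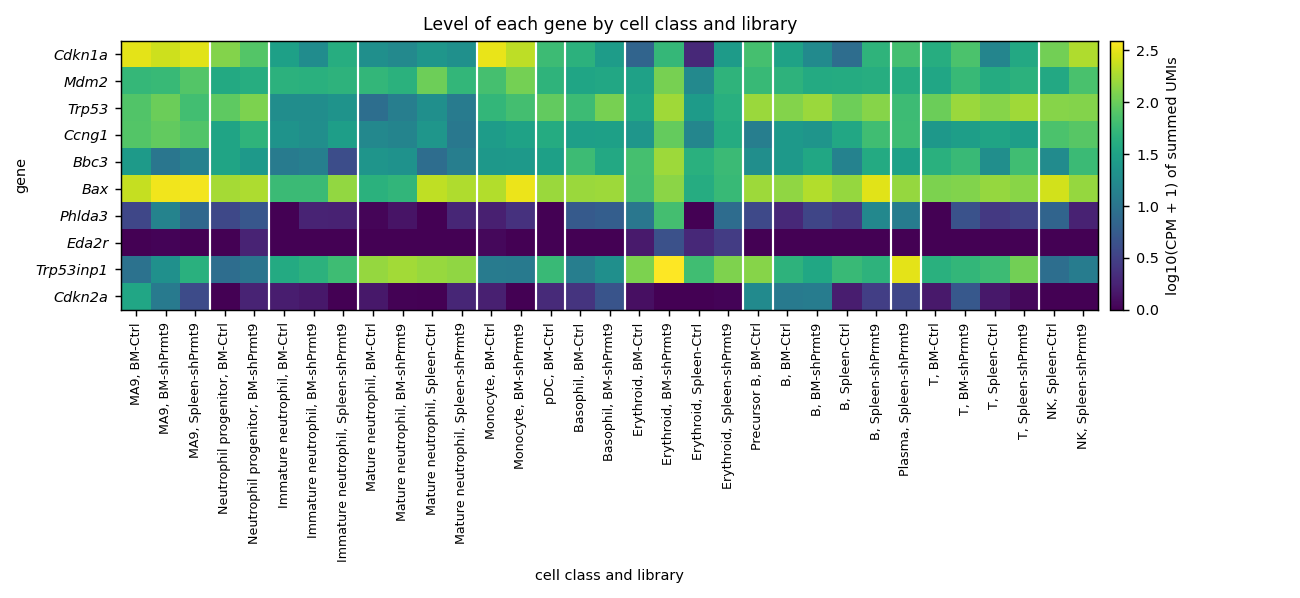
Level of each of the 10 genes (rows) as log10(CPM + 1) of summed UMIs in the 33 pairs of cell class and library with at least 50 cells (columns), with white lines between classes. The column of erythroid cells in BM-shPrmt9 is bright for most genes, while Cdkn1a is brightest in MA9 cells and monocytes and Cdkn2a in MA9 cells of BM-Ctrl.

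Within BM-Ctrl, MA9 cells were set against the other classes of the same library. Cdkn1a was 2.38 times as high as in neutrophil progenitors, 16.3 times as high as in mature neutrophils and 0.948 times the level of monocytes. Cdkn2a was 70.3 times as high as in mature neutrophils and 47.7 times as high as in monocytes, and had 0 UMIs in neutrophil progenitors. Mdm2 was at 1.03 times the level of mature neutrophils, while Trp53inp1 was at 0.0560 times. MA9 cells thus held more of both arrest genes than mature neutrophils of their library and far less of Trp53inp1. After each cell was thinned to 2000 UMIs, Cdkn2a was found in 4.50% of MA9 cells (25.7% unthinned) and 0.0350% of mature neutrophils, whose median UMI counts were 59001 and 3533.

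The first comparison asked whether MA9 cells with the hairpin carried more of the p53 targets in bone marrow. The members did not move one way. Of the 9 genes with at least 20 UMIs in the 2 libraries together, 2 were at least 1.5-fold higher in shPrmt9 (Phlda3 and Trp53inp1) and 2 at least 1.5-fold lower (Bbc3 and Cdkn2a), where 21.9% of all 14049 genes were that much higher and 16.2% that much lower. The members' median ratio was 1.18 beside 1.01 for all genes. The comparison rests on 1379 cells of BM-Ctrl and 1793 of BM-shPrmt9.

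By role, the CDK inhibitors among the members were lower in MA9 cells with the hairpin, Cdkn2a past the fold and Cdkn1a within it. Cdkn1a was at 306 CPM in BM-Ctrl and 246 CPM in BM-shPrmt9, a ratio of 0.804 (0.789–0.818). Cdkn2a was at 33.4 and 10.5 CPM, a ratio of 0.313 (0.291–0.336). Ccng1 was slightly higher, at 78.2 and 92.3 CPM with a ratio of 1.18 (1.14–1.22). Trp53 stood at 75.6 and 102 CPM, a ratio of 1.35 (1.31–1.39), while its regulator and target Mdm2 was nearly level at 52.7 and 54.2 CPM, with a ratio of 1.03 (0.987–1.07).

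The death genes of MA9 cells went in opposite directions. Bbc3 was at 25.0 CPM in BM-Ctrl and 9.31 CPM in BM-shPrmt9, a ratio of 0.373 (0.344–0.403). Bax was at 232 and 344 CPM, a ratio of 1.48 (1.46–1.51), just under the fold of 1.5. Phlda3 showed the largest ratio, 5.21 (4.50–6.05), from 2.56 to 13.3 CPM. Trp53inp1 was at 8.52 and 18.9 CPM, a ratio of 2.22 (2.03–2.43). Eda2r had 0 UMIs in BM-Ctrl and 6 in BM-shPrmt9, which is at least 1.75-fold higher when the 0 is set to the floor of 3 counts.

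No cluster was shared by the MA9 cells of both libraries, so the ratios set different clusters against each other. Clusters 10 (927 cells) and 21 (416 cells) held most of the control cells, and clusters 6 (1307 cells) and 22 (434 cells) most of the shPrmt9 cells. Division genes were highest in clusters 21 and 22, with Top2a, the topoisomerase of dividing cells, at 580 and 470 CPM against 36.6 and 76.7 CPM in clusters 10 and 6. Mki67 was at 259 and 297 CPM in clusters 21 and 22, and at 14.7 CPM in cluster 10 and 91.9 CPM in cluster 6. Ccnb1 was at 6.09 CPM in cluster 10 and 42.6 CPM in cluster 6, so cluster 6 held more of these genes than cluster 10 and the hairpin and division cannot be told apart between them. Phlda3 and Bax were higher in both shPrmt9 clusters than in both control clusters, Phlda3 at 13.3 and 13.7 against 2.68 and 2.30 CPM and Bax at 332 and 370 against 238 and 224 CPM. Bbc3 was lower in both, at 8.30 and 10.4 against 22.4 and 29.1 CPM. Cdkn1a was highest in cluster 10 at 336 CPM, and lay at 257, 253 and 238 CPM in clusters 21, 6 and 22. Cdkn2a was likewise highest in cluster 10, at 43.2 CPM, against 16.1 CPM in cluster 21 and 10.7 and 10.4 CPM in clusters 6 and 22. Both control clusters thus lay above both shPrmt9 clusters for Cdkn2a, while for Cdkn1a cluster 21 lay near cluster 6. Trp53inp1 was highest in cluster 6, at 24.0 CPM. Cluster 22, at 9.60 CPM, lay near control cluster 10 at 9.73 CPM but above control cluster 21 at 6.00 CPM. The 7 mature neutrophil markers summed to 5607 CPM in MA9 cells of BM-Ctrl and 27582 CPM in those of BM-shPrmt9, and the 6 MA9 markers to 485 and 652 CPM. The part of the neutrophil markers in these ratios was not tested.

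In spleen, only 35 MA9 cells of Spleen-Ctrl were found against 151 of Spleen-shPrmt9, and no ratio was formed. The 151 cells held Cdkn1a at 301 CPM, Bax at 355 CPM, Mdm2 at 78.5 CPM, Trp53inp1 at 43.2 CPM and Cdkn2a at 2.91 CPM. Their mature and immature neutrophil markers summed to 137102 and 38237 CPM, against 5607 and 1307 CPM in MA9 cells of BM-Ctrl. The MA9 markers summed to 476 and 485 CPM in the same 2 groups of cells. The part of the neutrophil markers in these levels was not tested.

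**Figure D3:**
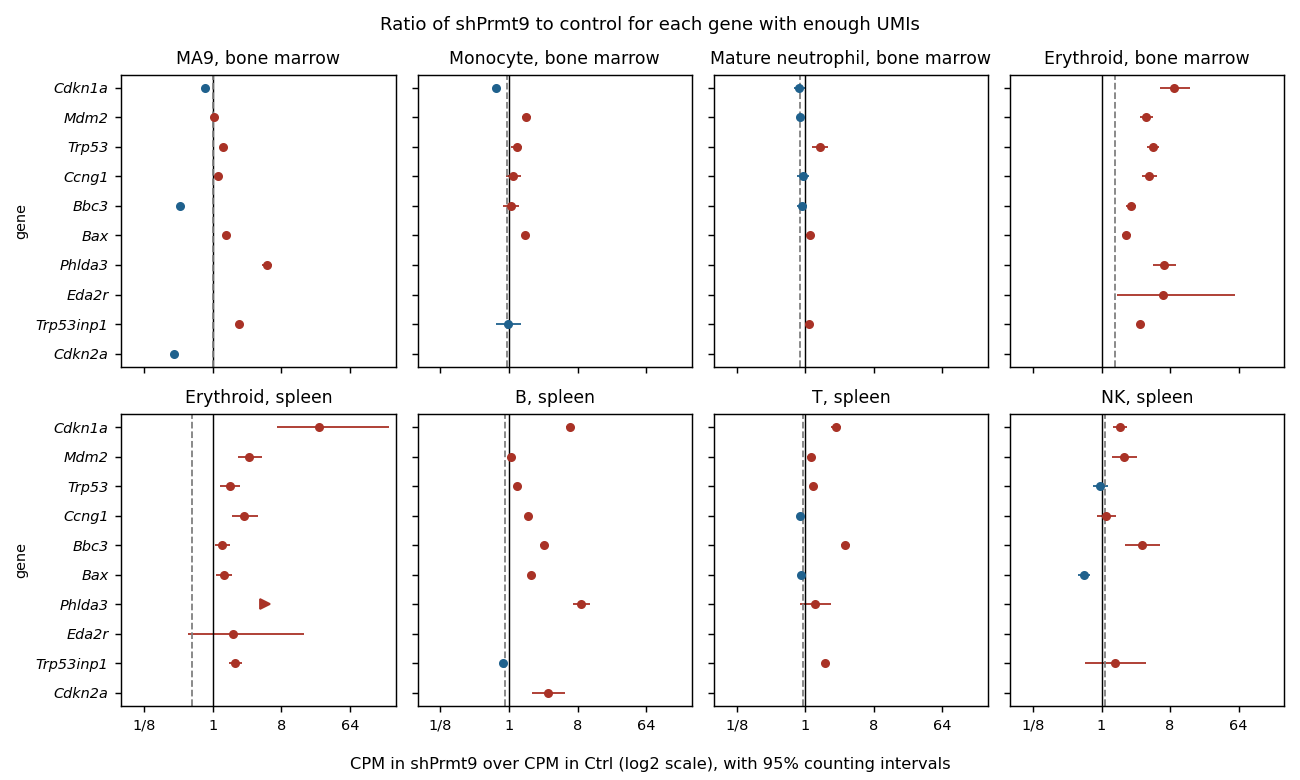
Ratio of CPM in shPrmt9 to CPM in control on a log2 scale, for each gene with at least 20 UMIs in the 2 libraries, in 8 comparisons. Bars are 95% counting intervals, red marks ratios above 1 and blue those below, a triangle marks a lower bound, and the dashed line is the median ratio of all genes. All points of bone marrow erythroid cells lie right of that line, while those of bone marrow MA9 cells lie on both sides.

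Erythroid cells gave the most uniform difference. In bone marrow all 9 genes with enough UMIs were at least 1.5-fold higher in shPrmt9, with a median ratio of 4.27. The background was high, since 51.3% of the 7154 genes were that much higher there and the median ratio of all genes was 1.53. A total of 639 cells of BM-Ctrl and 1157 of BM-shPrmt9 were compared. Globins, the products of erythroid maturation, took 68.8% of their UMIs in BM-Ctrl and 59.5% in BM-shPrmt9, and a smaller globin share raises the CPM of all other genes.

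Cdkn1a had 22 UMIs in BM-Ctrl and 352 in BM-shPrmt9, or 5.86 and 52.7 CPM, a ratio of 8.995 (5.85–14.5). Mdm2 was at 29.6 and 115 CPM, a ratio of 3.88 (3.18–4.78). Trp53 was at 34.6 and 164 CPM, a ratio of 4.74 (3.95–5.73). Thus the gene of p53, its negative regulator and its arrest target were all higher in the sums of this class, and were not counted together within single cells. Ccng1 was at 22.1 and 94.4 CPM, with a ratio of 4.27 (3.39–5.43). Phlda3 was at 9.59 and 64.1 CPM, with a ratio of 6.68 (4.75–9.67). Trp53inp1 was at 120 and 390 CPM, with a ratio of 3.26 (2.95–3.61). The death genes had the smallest ratios of the group, 2.45 (2.13–2.82) for Bbc3 at 65.5 and 160 CPM and 2.13 (1.85–2.47) for Bax at 65.0 and 139 CPM. Eda2r had 2 and 23 UMIs, a ratio of 6.47 (1.60–56.6), and Cdkn2a had 1 and 0. When the totals left out haemoglobin, immunoglobulin, mitochondrial and ribosomal protein genes, the ratios were 7.09 for Cdkn1a, 3.06 for Mdm2, 3.74 for Trp53, 3.36 for Ccng1, 5.27 for Phlda3 and 2.57 for Trp53inp1. Those of Bbc3 and Bax were then 1.93 and 1.68. Scaling by DESeq2 size factors, which shifts all genes of a class alike, lowered the 9 ratios by over 1.5 times, to 5.96 for Cdkn1a, 2.57 for Mdm2 and 1.41 for Bax, which then left the fold, and keeping doublets lowered that of Cdkn1a to 4.99. With whole clusters as classes the ratios were 8.39 for Mdm2, 7.28 for Ccng1 and 4.33 for Bax.

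The same cells were compared within clusters and within ranges of globin share, both chosen after the data were seen. In cluster 2, with 480 and 856 cells and globin at 74.7% and 67.0% of UMIs, the ratio was 10.1 (6.34–16.9) for Cdkn1a, 9.12 for Mdm2, 6.55 for Trp53, 7.79 for Ccng1, 9.41 for Phlda3, 4.69 for Bax, 3.998 for Trp53inp1 and 3.01 for Bbc3, beside 1.26 for the median of all genes. Cluster 19, with 148 and 248 cells, differed less. There Cdkn1a had a ratio of 5.01 (1.51–26.2), Phlda3 3.61, Trp53 2.15, Trp53inp1 1.42, Mdm2 1.18 and Bax 0.827, with a median of 1.47 over all genes. In cells with 40 to 80% globin, where the median ratio of all genes was 1.03, 8 of 8 genes were at least 1.5-fold higher with a median of 4.28. With at least 80% globin, 7 of 8 were higher with a median of 6.02 beside 0.876 for all genes. Below 40% globin, 6 of 8 were higher with a median of 1.97 beside 1.06, and Bax, at 0.945, was not. The share of all genes past the fold was not counted within these ranges, so only the medians can be set against a background.

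Markers of other classes were also unequal between these cells. The MA9 markers summed to 7.19 CPM in erythroid cells of BM-Ctrl and 20.1 CPM in those of BM-shPrmt9, and the mature neutrophil markers to 1574 and 6087 CPM. Xist had 0 UMIs in the control erythroid cells and stood at 348 CPM in the others. The part of these differences in the ratios was not tested.

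The erythroid cells of spleen had the same direction on a lower background. In 169 cells of Spleen-Ctrl and 1583 of Spleen-shPrmt9, 7 of the 9 genes with enough UMIs were at least 1.5-fold higher, where 7.33% of the 6086 genes were that much higher. Their median ratio was 1.99 beside 0.530 for all genes. Here globin moved the other way, at 79.7% of UMIs in Spleen-Ctrl and 85.5% in Spleen-shPrmt9, and Xist was at 0 UMIs in both. Cdkn1a had 2 UMIs in Spleen-Ctrl and 478 in Spleen-shPrmt9, or 1.01 and 25.6 CPM, a ratio of 25.3 (6.98–210). Mdm2 was at 15.7 and 47.6 CPM, a ratio of 3.04 (2.13–4.50). Trp53 was at 25.2 and 42.2 CPM, a ratio of 1.67 (1.26–2.27). As in marrow, Cdkn1a had the largest of these ratios. Ccng1 was at 14.6 and 38.1 CPM with a ratio of 2.60 (1.79–3.91), and 31.0% of its control UMIs came from 1 cell. Trp53inp1 was at 61.1 and 122 CPM with a ratio of 1.99 (1.66–2.41). The death genes again had the smallest ratios, and Bbc3 and Bax, at 1.34 and 1.40, stayed under the fold. Phlda3 had 0 UMIs in Spleen-Ctrl and 137 in Spleen-shPrmt9, at least 4.84-fold higher, with 29.9% of the UMIs in 1 of 26 cells. Eda2r had 2 and 35 UMIs, a ratio of 1.86 (0.477–15.9). Scaling by TMM factors, again a shift of all genes, raised the ratios by over 1.5 times, to 55.3 for Cdkn1a, 6.64 for Mdm2, 2.92 for Bbc3 and 3.06 for Bax, so that the death genes also passed the fold. With the mean over cells in place of the sum, the ratios were 105 for Cdkn1a, 5.09 for Trp53 and 3.61 for Trp53inp1, and the stricter cell filter gave 4.62 for Mdm2 and 4.21 for Ccng1.

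In spleen most of the higher ratios were counted in the cells with less globin. In cluster 2, with 94 and 691 cells and globin at 69.4% and 69.8%, Cdkn1a had 0 and 409 UMIs, at least 23.7-fold higher, and the ratios were 5.45 for Mdm2, 4.68 for Ccng1, 3.32 for Trp53inp1, 3.22 for Trp53, 2.70 for Bax and 2.22 for Bbc3, beside a median of 0.744 over all genes. Of the cells with 40 to 80% globin, 75 and 489, 8 of 8 genes were higher, with a median ratio of 3.004 beside 0.630. Among those with at least 80% globin, 78 and 876 cells, 1 of 7 was higher and 4 were counted as lower, and the median was 0.650 beside 0.833. Cdkn1a, with 0 and 24 UMIs, was 1 of these 4 only because its lower bound of 0.650 was counted, which was also that median. The rest were Bbc3 at 0.439, Bax at 0.616 and Trp53inp1 at 0.463, with intervals that included 1. The gene counted as higher was Mdm2, at 1.95 (0.511–16.6), and Ccng1 was at 1.22 (0.309–10.5). Trp53 had 0 and 50 UMIs, at least 1.35-fold higher. The control held at most 12 UMIs of a member in this range, so these ratios cannot show that a difference was absent there. Below 40% the control had 16 cells and was not compared. As in marrow, the share of all genes past the fold was not counted within the ranges. Mature neutrophil markers summed to 99.98 CPM in erythroid cells of Spleen-Ctrl and 280 CPM in those of Spleen-shPrmt9, and MA9 markers to 2.52 and 0.642 CPM.

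**Figure D4:**
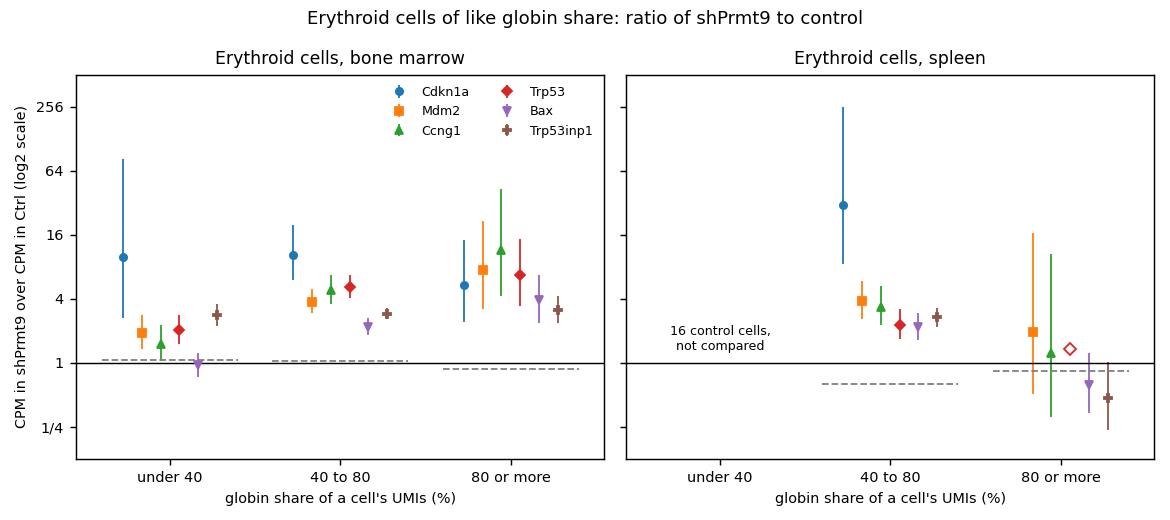
Ratio of CPM in shPrmt9 to CPM in control on a log2 scale, for 6 genes in erythroid cells grouped by the globin share of their UMIs, in bone marrow (left) and spleen (right). Bars are 95% counting intervals, dashed lines the median ratio of all genes, and the open marker a lower bound. Between 40 and 80% globin all 6 genes lie above that median in both tissues, and at 80% or more in spleen Trp53inp1 lies below it at 0.463.

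Counted per cell at a depth of 2000 UMIs, Cdkn1a was found in 4 of 515 erythroid cells of BM-Ctrl (0.777%, 0.212–1.98) and 57 of 820 of BM-shPrmt9 (6.95%, 5.31–8.91), with 124 and 337 shallower cells left out. Unthinned, the shares were 2.97% and 10.3%. In spleen it was found in 0 of 154 cells of the control (95% upper limit 2.37%) and in 49 of 1396 of shPrmt9 (3.51%, 2.61–4.61), and unthinned in 1 of 169 cells and in 124 of 1583. These shares count cells with a UMI, not cells that express the gene. No class known to lack Cdkn1a was at hand for a background, and the mature neutrophils of BM-Ctrl and BM-shPrmt9 held it in 3.43% and 2.78% of cells at the same depth, with median UMI counts of 3533 and 5624 against 5598 and 4496 in the erythroid cells.

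B cells of spleen were the class with the next highest share of members past the fold. In 5668 cells of Spleen-Ctrl and 1108 of Spleen-shPrmt9, 6 of 9 genes were at least 1.5-fold higher, where 8.69% of the 12881 genes were, and their median ratio was 1.96 beside 0.882 for all genes. Cdkn1a was at 7.52 and 47.5 CPM, a ratio of 6.31 (5.58–7.14). Phlda3 was at 1.70 and 15.3 CPM, a ratio of 9.01 (7.04–11.7). Bbc3 was at 12.99 and 37.2 CPM, a ratio of 2.86 (2.57–3.19). Arrest and death targets were both among the higher genes. Bax was at 152 and 298 CPM, a ratio of 1.96 (1.89–2.02), and Ccng1 at 34.8 and 61.1 CPM, a ratio of 1.75 (1.63–1.89). Cdkn2a was at 0.629 and 2.05 CPM, a ratio of 3.25 (1.99–5.39), with 30% of its control UMIs in 1 cell. Mdm2, at 38.3 and 40.7 CPM with a ratio of 1.06, Trp53, at 104 and 131 CPM with a ratio of 1.26, and Trp53inp1, at 56.0 and 46.6 CPM with a ratio of 0.831, were within the fold. When whole clusters were taken as classes, the ratios were 20.1 for Cdkn1a, 24.1 for Phlda3, 1.89 for Cdkn2a and 1.64 for Mdm2, which then passed the fold. With the mean over cells that of Ccng1 was 1.35 and left it.

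Different clusters held most B cells of the 2 spleen libraries. Control cells were mostly in cluster 0, led by Ighd, Bank1 and H2-Aa, and shPrmt9 cells in cluster 15, led by Apoe, Iglc2, Bhlhe41 and Mzb1, while cluster 4, led by Bcl2a1d, Cd83 and Zbtb32, held cells of both. Within cluster 4, with 992 and 359 cells, Cdkn1a was at 13.2 and 85.1 CPM, a ratio of 6.44 (5.49–7.57), and the ratios were 7.84 for Phlda3, 2.91 for Bbc3, 2.30 for Ccng1, 1.98 for Bax, 1.59 for Trp53inp1 and 1.33 for Mdm2. In cluster 15, with 149 and 718 cells, Cdkn1a had 1 and 64 UMIs, a ratio of 11.2 (1.94–450), Bbc3 a ratio of 2.48, Trp53 1.54 and Bax 1.52, while Ccng1 at 0.774 and Cdkn2a at 0.175 were below 1. Thinned to 2000 UMIs, 0.944% of control and 5.09% of shPrmt9 B cells held a Cdkn1a UMI (2.84% and 19.5% unthinned). In bone marrow, with 931 and 63 B cells, Cdkn1a was lower in shPrmt9, with 149 and 13 UMIs or 29.9 and 16.3 CPM and a ratio of 0.547 (0.285–0.964), or 0.216 with whole clusters as classes, and no other member was past the fold.

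T cells of spleen differed in 3 of 8 members, where 8.98% of the 12260 genes were at least 1.5-fold higher. Bbc3 was at 18.0 CPM in 1986 cells of Spleen-Ctrl and 61.1 CPM in 2422 cells of Spleen-shPrmt9, a ratio of 3.39 (3.0004–3.84). Cdkn1a was at 14.1 and 36.0 CPM, a ratio of 2.547 (2.21–2.94), and Trp53inp1 at 59.3 and 108 CPM, a ratio of 1.82 (1.69–1.95). The size of the Cdkn1a ratio depended on the classes, since it was 13.1 with whole clusters and 4.27 with the mean over cells. The other members were within the fold, at ratios of 1.34 (0.844–2.17) for Phlda3, 1.28 for Trp53, 1.18 for Mdm2, 0.879 for Bax and 0.865 for Ccng1.

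Among spleen T cells, Cdkn1a was past the fold in the CD8 cells and not in the gated CD4 cells, a difference that was not tested. In 999 and 1051 CD8 T cells, it was at 6.63 and 44.5 CPM, a ratio of 6.71 (5.23–8.72), with 38.6% of the control UMIs in 1 of 21 cells. In 439 and 657 CD4 T cells, it was at 20.8 and 20.9 CPM, a ratio of 1.01 (0.731–1.39), with 38.1% of the control UMIs in 1 of 14 cells. With whole clusters as classes the ratio was 4.83 in CD4 cells and 15.7 in CD8 cells, and with the mean over cells it was 1.73 in CD4 cells, so the value near 1 depended on the gates and on the sum. Bbc3, in contrast, was higher in both, with ratios of 2.89 in CD8 and 4.50 in CD4 cells, as was Trp53inp1 with 1.56 and 1.81. Trp53 had a ratio of 1.60 in CD4 cells, and Phlda3 one of 1.98 in CD8 cells and 0.570 (0.213–1.53) in CD4 cells. Clusters 9 and 17 held most control T cells and clusters 8 and 12 most shPrmt9 T cells. In cluster 25, which held 84 and 141 T cells, Cdkn1a was at 19.5 and 112 CPM, a ratio of 5.76 (3.26–11.1), and Mdm2 had a ratio of 1.74, but Bbc3 at 0.841 (0.440–1.65) and Trp53inp1 at 0.813 (0.615–1.08) were not higher. The ratios of Bbc3 and Trp53inp1 over all T cells thus set different clusters against each other.

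Natural killer cells of spleen, 80 and 136 cells, had Cdkn1a at 108 and 190 CPM, a ratio of 1.75 (1.41–2.19), Mdm2 at 35.3 and 69.9 CPM, a ratio of 1.98 (1.36–2.92), and Bbc3 at 16.8 and 57.1 CPM, a ratio of 3.40 (2.05–5.87). Bax was lower in them, at 256.3 and 151 CPM with a ratio of 0.589 (0.491–0.707), or 0.684 and within the fold when doublets were kept. T cells of bone marrow, 285 and 173 cells, had Cdkn1a at 40.3 and 70.3 CPM, a ratio of 1.75 (1.29–2.36), with Mdm2 at a ratio of 1.65 (1.18–2.33) and Trp53 at 1.59 (1.31–1.93). With whole clusters as classes the Cdkn1a ratio of these T cells was 1.27 and within the fold.

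Over the members, myeloid cells showed no common direction. The Cdkn1a ratio was below 1 in each of the myeloid classes that follow. Its interval included 1 in basophils and in mature neutrophils of spleen. In the latter it was 0.861 (0.336–2.61), or 1.29 with DESeq2 size factors. Of 7 members counted in monocytes of bone marrow, 494 and 247 cells, 2 were at least 1.5-fold higher and 1 lower, where 13.8% of the 10655 genes were higher and 18.1% lower. Mdm2 was at 65.5 and 111 CPM, a ratio of 1.69 (1.49–1.92). Bax was at 197 and 325 CPM, a ratio of 1.65 (1.53–1.78). Cdkn1a was lower, at 323 and 215 CPM with a ratio of 0.666 (0.617–0.718), at the edge of the fold and past it under 3 of 8 alternatives. Cluster 13 held most of these cells in both libraries.

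Mature neutrophils of bone marrow, 3186 and 3923 cells, had 1 of 7 members higher and 0 lower, where 8.64% of the 10512 genes were higher and 17.5% lower. It was Trp53, at 7.68 and 12.0 CPM with a ratio of 1.56 (1.23–1.98), which was 1.42 with doublets kept, 1.36 with whole clusters as classes and 1.46 with the mean over cells. Trp53inp1, of which these cells held much, was at 152 and 168 CPM with a ratio of 1.10 (1.05–1.17). Mdm2 at a ratio of 0.853 and Cdkn1a at 0.832 were close to the median of all genes, 0.849. In immature neutrophils of marrow, Cdkn1a was at 29.0 and 17.1 CPM, a ratio of 0.589 (0.489–0.710). Within cluster 7, which held most of these cells, it was 0.942 (0.583–1.58), and in cluster 29 0.574 (0.434–0.757). It left the fold with TMM factors, DESeq2 size factors and the mean over cells, at 0.715, 0.718 and 0.749, and was 0.271 with whole clusters as classes. In mature neutrophils of spleen, with 65 and 113 cells, Mdm2 was at 104 and 50.9 CPM, a ratio of 0.492 (0.307–0.804), which left the fold with TMM factors, DESeq2 size factors and whole clusters as classes, at 0.733, 0.739 and 0.733. Basophils, 78 and 75 cells, had Trp53 at 58.5 and 114 CPM, a ratio of 1.94 (1.33–2.89), and Cdkn1a at a ratio of 0.572 (0.312–1.03), or 0.337 with whole clusters as classes.

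Beyond the 10 genes, 28 other p53 targets were listed, of which 27 are in the matrices, and counted in the same way. In erythroid cells of bone marrow 11 of 18 with enough UMIs were at least 1.5-fold higher and 0 lower, with a median ratio of 2.40. As 51.3% of all genes were that much higher there and 3.55% lower, with a median of 1.53, the list stood near the background. Among them Zmat3, which regulates RNA stability and splicing, was at 2.13 and 20.2 CPM, a ratio of 9.49 (4.68–22.4), and the death receptor Fas had 2 and 20 UMIs. Rps27l, a ribosomal protein induced by p53, was at 234 and 579 CPM, a ratio of 2.47. The phosphatase Ppm1d at 0.787 and Sesn1 at 0.928 were not higher. In erythroid cells of spleen 7 of 16 were higher and 4 lower, where 7.33% of all genes were higher and 66.8% lower, with a median of 1.304 beside 0.530 for all genes, and Zmat3 had a ratio of 2.68. These erythroid genes were named after their values were seen.

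In the other classes the further targets went both ways. In MA9 cells of marrow 6 of 26 were higher and 7 lower, with a median of 1.07, where 21.9% and 16.2% of all genes were, so the share of higher genes was near the background. The largest differences were those of Gadd45a, a growth arrest gene, at 244 and 66.8 CPM with a ratio of 0.274, Sesn2 at 30.2 and 8.44 CPM with 0.280, Pmaip1, which encodes Noxa, at 23.3 and 10.7 CPM with 0.457, and Pidd1 at 2.04 and 4.32 CPM with 2.12. B cells of spleen had 8 higher and 5 lower of 26, where 8.69% and 22.9% of all genes were, with a median of 1.10, led by Gdf15 with 3 UMIs in the control and 33 in shPrmt9 (ratio 25.6, 8.02–130), the death receptor Tnfrsf10b with 3.76, Sesn1 at 86.5 and 23.7 CPM with 0.274, and Pmaip1 with 2.28. T cells of spleen had 4 higher and 5 lower of 26, where 8.98% and 19.1% of all genes were, with a median of 0.890, led by Sesn2 with a ratio of 2.83, Perp with 0.365, Fas at 44.4 and 106 CPM with 2.38, and Pmaip1 with 2.25. In mature neutrophils of marrow 1 of 24 was higher and 5 lower, where 8.64% and 17.5% of all genes were, with a median of 0.832. Perp had 1 and 23 UMIs there, Fdxr a ratio of 0.491, Plk3 0.492 at 72.9 and 35.9 CPM, and Sesn2 0.505 at 97.1 and 49.0 CPM. Monocytes of marrow had 4 higher and 5 lower of 24, where 13.8% and 18.1% of all genes were, with a median of 0.882.

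Genes that p21 represses through the DREAM complex, 14 genes of DNA replication and division, were counted beside their repressor. In B cells of spleen, where Cdkn1a was higher, 12 of 14 were at least 1.5-fold higher and 0 lower, against 8.69% and 22.9% of all genes, with a median of 2.05, among them Ccna2 with a ratio of 3.49, Birc5 with 3.44, Foxm1 with 3.27 and Mki67 at 7.82 and 21.1 CPM with 2.70. Spleen T cells, where Cdkn1a was also higher, had 0 higher and 10 lower of 13, against 8.98% and 19.1% of all genes, with a median of 0.383, led by Mki67 at 10.9 and 1.57 CPM with a ratio of 0.144, Birc5 with 0.1602, Cdk1 with 0.196 and Ccna2 with 0.227. In monocytes of marrow, where Cdkn1a was lower, 13 of 14 were lower, against 18.1% of all genes, with a median of 0.247. MA9 cells of marrow had 5 of 14 higher and 0 lower, against 21.9% and 16.2% of all genes, with a median of 1.39, led by E2f1 with 1.85, Birc5 at 77.1 and 135 CPM with 1.75, Mki67 at 103 and 165 CPM with 1.60 and Chek1 with 1.58. Mature neutrophils of marrow had 3 of 11 higher, against 8.64% of all genes, with a median of 1.28, led by Cdc20 with 2.21, Mybl2 with 1.93, E2f1 with 1.81 and Birc5 with 1.40. In erythroid cells of marrow 3 of 14 were higher and 5 lower, against 51.3% and 3.55% of all genes, with a median of 0.847, Birc5 being at 586 and 299.9 CPM with a ratio of 0.512, and in those of spleen 1 of 7 was higher and 4 lower, against 7.33% and 66.8% of all genes, with a median of 0.654. The ratio of Cdkn1a and the median of the division genes lay on the same side of 1 in spleen B cells and monocytes, and on opposite sides in spleen T cells, MA9 cells, mature neutrophils of marrow and the erythroid cells of both tissues. A ratio of 1 was not the middle of all genes in each class. In erythroid cells of spleen both values lay above the median of all genes, 0.530. In mature neutrophils Cdkn1a, at 0.832, was close to the median of all genes there, 0.849.

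**Figure D5:**
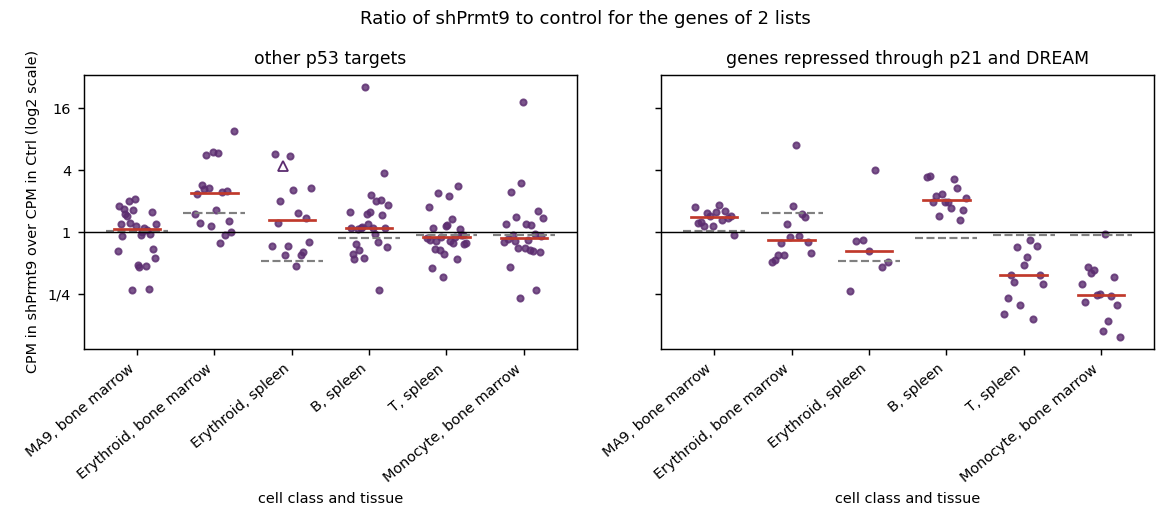
Ratio of CPM in shPrmt9 to CPM in control on a log2 scale for the genes of 2 lists, other p53 targets (left) and genes repressed through p21 and DREAM (right), in 6 comparisons. Each point is a gene with at least 20 UMIs in the 2 libraries, red lines are list medians, dashed lines medians of all genes, and the open triangle a lower bound. Division genes lie above the median of all genes in spleen B cells, at a list median of 2.05, and below it in spleen T cells, at 0.383.

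The G1 cyclins, their kinases and the RB family were counted as a list of 11. The shares of all genes that were higher and lower in each class, given with the lists before, are the background of this list and the next 2. MA9 cells of marrow had 3 higher and 4 lower, with a median of 1.13, led by Ccnd1 at 14.7 and 1.53 CPM with a ratio of 0.104, Ccnd2 at 299.9 and 78.8 CPM with 0.263, Ccne2 with 2.44 and Ccne1 with 1.87. The other D cyclin, Ccnd3, was higher at 211 and 353 CPM with a ratio of 1.67, and is named here after its values were seen. T cells of spleen had 1 higher and 1 lower, with Ccne1 at 11.5 and 161 CPM and a ratio of 14.0 (12.1–16.2), followed by Ccnd1 with 0.628, Cdk6 with 0.681 and Ccnd2 with 1.39. B cells of spleen had 3 higher and 2 lower, led by Ccnd1 with 0.308, Ccne1 with 2.08, Ccne2 with 1.94 and Ccnd2 at 199 and 333 CPM with 1.68. Mature neutrophils had 2 higher and 3 lower, led by Ccne1 with 2.92 (1.21–8.54), Ccnd1 with 0.578 (0.315–1.07), Rbl1 with 1.66 and Cdk2 with 0.639.

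Of the 5 other CDK inhibitors, MA9 cells had 2 higher and 1 lower, with Cdkn1c, which encodes p57, at 10.3 and 44.2 CPM and a ratio of 4.30, Cdkn2b, the neighbour of Cdkn2a, with 0.427, Cdkn2c with 1.57 and Cdkn2d with 1.10. T cells of spleen had Cdkn2b with a ratio of 3.11 (1.01–12.7), Cdkn2c with 0.413, Cdkn1c with 1.27 and Cdkn2d with 0.936. B cells of spleen had Cdkn2b with 8.30 (3.49–22.7), Cdkn1c with 0.320, Cdkn1b, which encodes p27, at 145 and 79.1 CPM with 0.544, and Cdkn2d with 0.696. Cdkn2b was thus lower in MA9 cells and higher in spleen lymphocytes. Mature neutrophils had Cdkn1c with 1.81 (0.640–6.27), Cdkn2c with 1.502, Cdkn2d with 0.846 and Cdkn1b with 0.947.

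Regulators of p53 and of Cdkn2a formed a list of 16, of which 13 or 14 had enough UMIs in each of these classes. Among MA9 cells 2 were higher and 1 lower, led by Cbx7 with a ratio of 2.42, Bmi1 at 17.4 and 9.60 CPM with 0.552, Chek1 with 1.58 and Atr with 0.682. Cbx7 and Bmi1 are Polycomb proteins known to repress Cdkn2a. Spleen T cells had 1 higher and 3 lower, led by Chek2 with 0.451, Chek1 with 0.476, the DNA damage kinase Atm at 46.9 and 85.2 CPM with 1.82, and Hipk2 with 0.619. Spleen B cells had 3 higher and 2 lower, led by the Polycomb methyltransferase Ezh2 at 65.6 and 204 CPM with 3.11, Cbx7 with 0.442, Chek1 with 1.97 and Hipk2 with 0.563. In mature neutrophils 2 were higher and 0 lower, with Atm at 2 and 23 UMIs, Chek2 at a ratio of 2.87, Mdm4 at 76.1 and 50.9 CPM with 0.668, and Trp53bp1 with 0.683.

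The likeness of other genes to 5 of the members was measured as Pearson's r of log2(CPM + 1) over the 33 pairs of class and library, among 12896 genes. These points share libraries and depth, so the values are a description. Ccng1 was most like Rps27l (r = 0.811), Hsp90aa1 (0.730) and St7 (0.694). Trp53 was most like Atm (0.922), Exoc4 (0.918) and Alkbh8 (0.910). Of these, Rps27l and Atm were also on the lists of p53 targets and regulators. Cdkn1a was most like Cyp4f16 (0.787), P4hb (0.769) and Mmadhc (0.767), Mdm2 most like Tdrd7 (0.669), Trafd1 (0.660) and Apaf1 (0.660), and Cdkn2a most like Stau2 (0.761), Cdkn2b (0.757) and Ppm1e (0.735). Among pairs of members r ran from -0.52 for Cdkn1a and Trp53inp1 to 0.68 for Cdkn1a and Bax.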

How the data were processed

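Single-cell RNA-seq counts of 4 libraries were used, 1 per group, with groups taken from the titles. The matrices deposited by the authors hold raw UMI counts of each barcode. They come from Cell Ranger, given as 6.0.2 in the file headers and 6.1.1 in the submitters' processing notes, on mm10. Gene positions are from GRCm38. There were 0 unused columns of per-sample values.

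Barcodes under 200 genes or over 20% mitochondrial UMIs were dropped, and the cells with the highest Scrublet scores (scanpy 1.11.5), up to an expected 0.8% per 1000 cells, were left out as doublets. Cells were gated by markers, of which the class score had to be at least 0.3 and lead the next class by 0.1, with at least 3 markers detected and at most 1 MA9 marker. MA9 cells were gated otherwise, by at least 3 MA9 markers and a score of at least 0.3. That score had to exceed those of the classes outside the neutrophil lineage, with no set lead. The scores of neutrophils and their progenitors were not weighed against it. The markers were listed beforehand, but these limits and the omission of neutrophil progenitors from the comparisons (medians of 25197 and 2404 UMIs in different clusters) were set after the cells were seen. UMIs were summed per class and library and given as CPM. A count of 0 in 1 library was set to 3 in calls and medians. A gene was called past 1.5-fold when it had at least 20 UMIs in both libraries together. The study's test treats cells as replicates and was not used. The members and lists were chosen with earlier results of these data known. The main classes were MA9 cells of marrow, T cells of spleen and the 2 further classes with most member UMIs, and up to 4 genes of each list with the largest absolute log2 ratio were named in them. Alternatives were scaling by edgeR 4.0.16 or DESeq2 1.42.0 factors (R 4.3.3), other totals, filters, doublets, classes, folds and depths. The calculations were tested on simulated data.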

Additional observations from a re-analysis of the deposited data

Results flagged for a closer look

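Cdkn1a went in opposite directions in the B cells of the 2 tissues. Its ratio of shPrmt9 to control was 0.547 in bone marrow, from 149 and 13 UMIs, and 6.31 in spleen. With 1 library per group the difference between the tissues was not tested.

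Cells that passed no gate were outside the comparisons, and those of cluster 4 in Spleen-shPrmt9 held much Cdkn1a. It was at 287 CPM in 487 such cells, against 45.9 CPM in 58 ungated cells of that cluster in Spleen-Ctrl. Phlda3 was at 93.2 and 13.6 CPM, Ccng1 at 141 and 45.0 CPM and Bax at 667 and 336 CPM in the same cells.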

How the results depend on the processing

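No paired analysis was possible because each group had 1 library. Of 57 ratios past 1.5-fold, 46 stayed past it under each of 8 other scalings, filters and gates that gave a value, and 11 did not. These were, with their ranges, Cdkn1a in immature neutrophils (0.271–0.749), monocytes (0.619–0.731) and T cells (1.27–1.82) of marrow, Trp53 in mature neutrophils (1.36–1.84) and Bax in erythroid cells (1.41–4.33) of marrow, Bbc3 (0.590–0.958) and Trp53inp1 (1.14–1.72) in basophils, and in spleen Mdm2 in mature neutrophils (0.481–0.739), Ccng1 in B cells (1.35–2.66), Bax in natural killer cells (0.525–0.684) and Phlda3 in CD4 T cells (0.430–1.09). Of 176 recomputed counts of members past the fold, 159 stayed within 1.5 times the reported value. In mature neutrophils of marrow, with 1 member higher and 0 lower, 0 were higher with classes from clusters, with the mean over cells and at 2-fold, 2 were higher with at least 1 UMI in each library, and 1 was lower with doublets kept and with at least 1 UMI in each library. In monocytes, with 2 higher and 1 lower, 0 were higher at 2-fold, and 0 were lower with TMM scaling, DESeq2 size factors, the stricter cell filter, classes from clusters, the mean over cells and 2-fold. In erythroid cells of spleen, with 7 higher, 4 were higher at 2-fold and 1 in cells of at least 80% globin, where 4 were counted as lower instead of 0. Those 4 lower genes include Cdkn1a, which had 0 control UMIs there and was counted at its lower bound. In T cells of spleen, with 0 lower, 1 was lower with at least 1 UMI in each library. Directions turned for Bax in erythroid cells of marrow under 40% globin (0.945), Bbc3 (0.841) and Trp53inp1 (0.813) in T cells of spleen within cluster 25, Phlda3 in CD4 T cells of spleen with classes from clusters (1.09) and Trp53inp1 in erythroid cells of spleen of at least 80% globin (0.463). The cause was not tested. The comparisons within clusters and globin ranges were chosen after seeing the data. Depth limited Eda2r, Phlda3 and Cdkn2a in most classes, where counts of 0 to 3 UMIs give no firm ratio.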
